A study of Mus musculus with 16 samples.

Results

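ATMs of mice fed a high-fat diet (HFD) for 4 weeks (ST-HFD) were compared between IRF5-KO and WT mice. The comparison holds 8 of the 16 libraries of the series, the 4 labelled IRF5-KO and the 4 labelled WT at 4 weeks. They were chosen by their labels alone. The other 8 libraries hold ATMs of the same genotypes after 12 weeks of HFD (LT-HFD). Libraries of the same number were fitted as pairs, so a log2 fold change below is the difference IRF5-KO minus WT within pairs.

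All mice were young adult males. IRF5-KO mice came from a cross of IRF5 flox/flox mice with LysM-Cre mice, in which Cre recombinase sits in the Lyz2 locus and is active in myeloid cells. By this design, deletion is limited to cells in which this Cre is or was active. The methods do not state whether WT mice carried floxed alleles or LysM-Cre. F4/80+ cells were taken from epididymal fat pads (EpiWAT) with magnetic beads against F4/80, so each library is a bulk of selected cells. The labels do not say that each library is a separate animal, so p-values measure only the spread between these samples.

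IRF5 is a transcription factor that acts below Toll-like receptors and the adaptor MyD88 and switches on inflammatory cytokine genes in macrophages. In fat, macrophages take up lipid from dying adipocytes, present antigen and remodel matrix, and their oxidative metabolism adapts to the diet. The comparison asks how loss of IRF5 in myeloid cells alters transcripts of ATMs early in HFD feeding.

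Total counts were 3860469 to 4958131 per library, and levels are given as CPM, counts scaled to a library's total over the tested genes times its TMM factor from edgeR. The 3 most abundant features took 18.58% to 24.07% of a library. Of 37310 gene identifiers, 10958 passed the filter on low counts and were tested. On the first principal component, 36.8% of the variance, WT 2, IRF5-KO 2 and IRF5-KO 3 lay at one end and WT 1, WT 4, IRF5-KO 1 and IRF5-KO 4 at the other, so this axis did not follow genotype.

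The targeted gene came first, and its counts gave no drop with the IRF5-KO label. Irf5 (ENSMUSG00000029771, chromosome 6, 29526625 to 29541871 on the plus strand of GRCm38) stood at 210, 253, 254 and 256 CPM in WT 1 to 4 and at 257, 256, 274 and 280 CPM in IRF5-KO 1 to 4. The 4 IRF5-KO values lay above the 4 WT values, and the log2 fold change was 0.14 with SE 0.077. The deposited count is a gene total that cannot separate deleted from remaining exons, so it does not check the deletion. Tnpo3, a nuclear import receptor gene that overlaps the end of Irf5 on the opposite strand, gave 44.3 to 51.8 CPM in WT and 45.6 to 59.3 CPM in IRF5-KO (log2 fold change 0.14, SE 0.09). The strand setting of the counting is not given in the sources used here. At 12 weeks the log2 fold change of Irf5 was 0.24 (SE 0.12). Every direction below is therefore one between libraries labelled IRF5-KO and libraries labelled WT.

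The libraries carried the transcripts of macrophages in both groups. The summed level of 15 macrophage identity genes was 8718 to 9829 CPM in WT and 8622 to 10275 CPM in IRF5-KO. Adgre1, which encodes F4/80 itself, gave 565 to 708 CPM in WT and 507 to 747 CPM in IRF5-KO (log2 fold change -0.035, SE 0.079). Csf1r, the receptor for the macrophage growth factor M-CSF, gave 1718 to 2159 CPM in WT and 1806 to 2132 CPM in IRF5-KO. In this list Cd14, a co-receptor for lipopolysaccharide, was higher with an unadjusted p under 0.05 (0.28, SE 0.11) and Fcgr1, a high-affinity IgG receptor, was lower (-0.26, SE 0.10).

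Markers of other cells were present at lower levels. Neutrophil genes summed to 54.5 to 94.9 CPM in WT and 54.6 to 104.8 CPM in IRF5-KO, and Ly6g, Elane and Camp had no count in any library. T and NK cell genes summed to 51.5 to 108.8 CPM in WT and 40.7 to 122.5 CPM in IRF5-KO. B and plasma cell genes summed to 187 to 301 CPM in WT and 145 to 356 CPM in IRF5-KO, mostly from Ighm. Mast cell and eosinophil genes summed to 1.82 to 7.23 CPM in WT and 3.90 to 6.90 CPM in IRF5-KO, with Epx and Ms4a2 at 0, and mesothelial genes to 19.9 to 41.9 CPM and 21.2 to 36.7 CPM. None of these ranges separated the genotypes.

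Dendritic cell genes summed to 253 to 414 CPM in WT and 253 to 441 CPM in IRF5-KO, and 8 of 10 tested members were higher (median log2 fold change 0.19). In that list Fscn1, an actin-bundling protein of mature dendritic cells, was higher with an unadjusted p under 0.05 (0.50, SE 0.17). Batf3, a transcription factor of cross-presenting dendritic cells, was lower in the same sense (-0.30, SE 0.12). In bulk libraries, fewer cells of a type and less RNA per cell cannot be told apart.

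Across genes, 2 of 10958 passed adjustment at 0.05 in the quasi-likelihood test of edgeR, a share of 0.0183%, and both encode lysozymes. Lyz1 rose and Lyz2 fell in the libraries labelled IRF5-KO. Every other gene had an adjusted p of at least 0.992. For those genes the log2 fold change is given with its SE, and "p under 0.05" refers to the unadjusted p of the same fit. The plot of fold change against p shows how far both stood from all other genes.

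**Figure D1:**
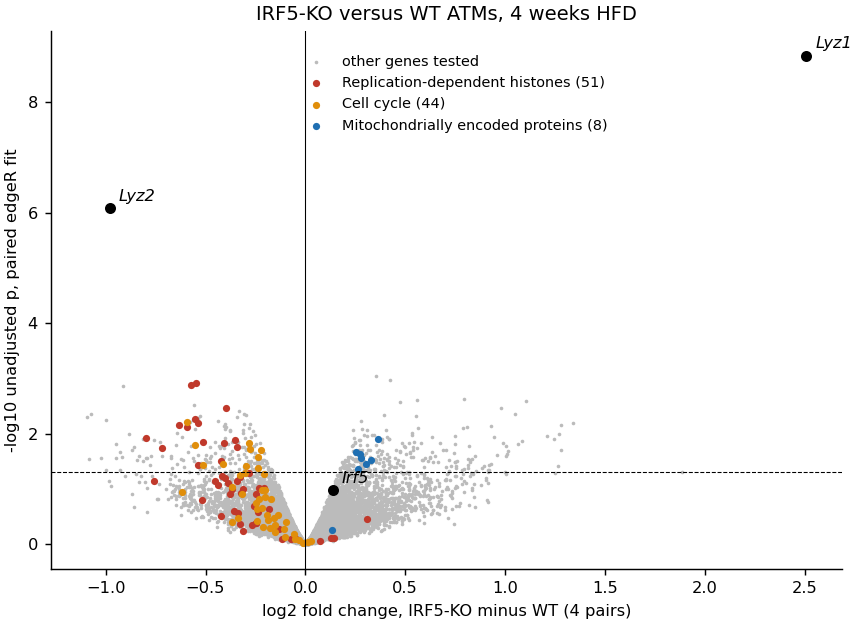
Each point is 1 of 10958 tested genes, with its log2 fold change (IRF5-KO minus WT at 4 weeks HFD, paired fit) on the horizontal axis and -log10 of its unadjusted p on the vertical axis. Lyz1 at 2.51 and Lyz2 at -0.98 stand above all others, and Irf5 lies near the centre at 0.14.

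Lyz2 (ENSMUSG00000069516, lysozyme M, chromosome 10, 117277331 to 117282321, minus strand) is the macrophage lysozyme and the locus that carries Cre. It stood at 3451, 3109, 3588 and 3909 CPM in WT 1 to 4 and at 2026, 1411, 1858 and 1875 CPM in IRF5-KO 1 to 4. Every IRF5-KO value lay below every WT value, and the log2 fold change was -0.98 with SE 0.092 (adjusted p = 0.00453 in edgeR). With no replicate block its adjusted p was 0.106, and leaving out each pair in turn gave adjusted p-values of 0.0116 to 0.17, so this call depended on the setting while its direction did not.

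Lyz1 (ENSMUSG00000069515, lysozyme P, chromosome 10, 117287797 to 117292868, minus strand) is the neighbouring gene, known for its use in Paneth cells of the intestine. It stood at 33.7, 33.4, 52.4 and 29.8 CPM in WT and at 151, 236, 256 and 203 CPM in IRF5-KO. All IRF5-KO values lay above all WT values, with a log2 fold change of 2.51 and SE 0.12 (adjusted p = 1.56e-05 in edgeR). The same directions were measured in the other mice at 12 weeks, where Lyz2 differed by -1.04 and Lyz1 by 2.04 (adjusted p = 0.0484 each in edgeR, fitted by genotype alone). With the replicate block at 12 weeks, 0 genes passed the adjusted test in edgeR, the lysozymes included, and 601 had an unadjusted p under 0.05. The difference between durations was 0.06 for Lyz2 and 0.46 for Lyz1 (SE 0.17 and 0.34).

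The loss of Lyz2 counts was larger than the gain of Lyz1 counts. Their sum was 3484, 3143, 3640 and 3939 CPM in WT and 2177, 1648, 2114 and 2078 CPM in IRF5-KO, lower in 4 of 4 pairs. The mean log2 ratio of the sum was -0.83 with an SD of 0.12 over pairs (exact two-sided sign-flip permutation p = 0.13, the smallest p that 4 pairs allow). Lyz1 made up 1.06% of the sum in WT and 10.8% in IRF5-KO.

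Both genes are close copies, so their promoters are shown as RefSeq gives them for GRCm38.p6, 250 bases up to the start of each RefSeq transcript. They were printed because the only 2 genes that passed the test share a stretch of this sequence. Lyz2 lies at chr10:117282273-117282522 and Lyz1 at chr10:117292869-117293118, both read on the minus strand. Capitals mark the longest run that both share.
Lyz2: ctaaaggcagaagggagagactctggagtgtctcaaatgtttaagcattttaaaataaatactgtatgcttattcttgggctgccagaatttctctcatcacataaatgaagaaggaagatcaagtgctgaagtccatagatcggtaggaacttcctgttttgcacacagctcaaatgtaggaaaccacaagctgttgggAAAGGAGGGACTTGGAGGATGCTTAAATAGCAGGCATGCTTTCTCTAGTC
Lyz1: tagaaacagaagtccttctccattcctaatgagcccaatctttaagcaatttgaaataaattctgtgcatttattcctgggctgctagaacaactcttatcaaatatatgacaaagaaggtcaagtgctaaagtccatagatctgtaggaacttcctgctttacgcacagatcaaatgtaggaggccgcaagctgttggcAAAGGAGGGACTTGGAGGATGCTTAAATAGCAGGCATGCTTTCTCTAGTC
The shared run is 50 bases long and reaches the RefSeq transcript start, and 79.4% of 252 aligned columns were identical. The annotation behind the gene coordinates above starts Lyz2 further upstream than RefSeq does, so nearly all of the shared run of Lyz2 lies inside that annotated transcript, while that of Lyz1 lies just outside. Their annotated transcripts had 24 stretches of 100 bases in common, 2.0% of those in Lyz2 and 2.1% of those in Lyz1. Reads from such stretches could be split between both genes, which leaves the exact share of each uncertain.

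**Figure D2:**
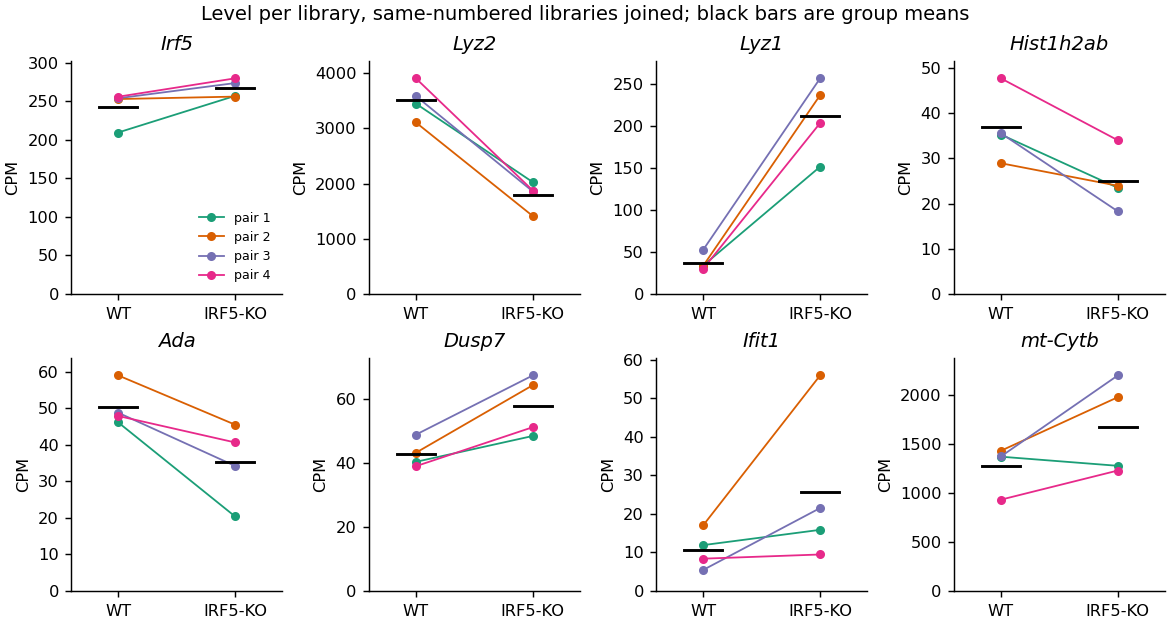
CPM of 8 genes in the 8 libraries at 4 weeks HFD, with WT on the left and IRF5-KO on the right of each panel, a line joining libraries of the same number and a black bar at each group mean. Lyz1 and Lyz2 have no overlap between genotypes, and Irf5 is not lower in IRF5-KO.

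Below the adjusted threshold, 252 genes (2.3% of those tested) were higher with an unadjusted p under 0.05 and 199 (1.82%) were lower. The median log2 fold change over all genes was 0.00166, and 5528 of 10958 were higher. With the added demand of an absolute log2 fold change over 1, the thresholds of the study's legends, 17 genes were higher (0.155%) and 5 were lower (0.0456%). All 4 pairs moved one way for 175 of the 252 higher and 163 of the 199 lower genes. The genotypes did not overlap in 178 genes (1.62%), of which 78 were higher. None of the genes in the next 4 paragraphs passed the adjusted test in this fit.

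The following higher genes had the smallest p, all 4 pairs one way and a mean of at least 10 CPM. Dst, a giant linker of cytoskeletal filaments, read 69.3, 129, 105 and 54.9 CPM in WT and 87.3, 162, 132 and 74.4 CPM in IRF5-KO (0.35, SE 0.076). Its genotypes overlapped, with libraries 2 and 3 high in both. Dusp7, a phosphatase of MAP kinases, read 40.3, 43.1, 48.8 and 38.9 CPM against 48.4, 64.2, 67.3 and 51.1 CPM (0.42, SE 0.093). Cdc42bpa, a kinase that acts on actomyosin, stood at 6.04 to 9.27 CPM in WT and 9.46 to 20 CPM in IRF5-KO (0.80, SE 0.20).

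Vcan, a matrix proteoglycan, stood at 11.9 to 20.3 CPM in WT and 16.4 to 32.5 CPM in IRF5-KO (0.56, SE 0.14). Ltbp4, which holds latent TGF-beta in matrix, differed by 0.48 (SE 0.12), with library 4 at 22.0 CPM in WT and 22.2 CPM in IRF5-KO. Sh3bp5, a JNK-binding exchange factor, did not overlap between genotypes, at 26.8 to 34.8 CPM and 39.4 to 48.1 CPM (0.39, SE 0.11). Nynrin (0.55, SE 0.15) and Ehbp1 (0.56, SE 0.17), an adaptor of endocytosis, followed. Malat1, a long nuclear noncoding RNA, stood at 6883, 7860, 9133 and 5831 CPM in WT and 8211, 9623, 11555 and 6899 CPM in IRF5-KO, higher in 4 of 4 pairs (0.28, SE 0.086).

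The lower genes of this kind included Ada, adenosine deaminase, at 46.2, 59.0, 48.8 and 47.9 CPM in WT and 20.4, 45.5, 34.2 and 40.7 CPM in IRF5-KO, with no overlap (-0.56, SE 0.14). Naip2, a sensor of bacterial secretion rods, also had no overlap, at 61.8 to 69.9 CPM and 50 to 59.8 CPM (-0.31, SE 0.084). The same held for Pilra, an inhibitory myeloid receptor (-0.53, SE 0.15), and Tspan32, a tetraspanin of blood cells (-0.54, SE 0.15). Coro2a, an actin-binding coronin, overlapped (-0.34, SE 0.095). Usp1, a deubiquitinase of DNA repair (-0.33, SE 0.089), and Lig1, the DNA ligase that joins replication fragments (-0.30, SE 0.082), were lower in 4 of 4 pairs.

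Genes past a log2 fold change of 1 were mostly weakly expressed. Dmpk, a kinase known from myotonic dystrophy, stood at 2.22 to 3.89 CPM in WT and 5.56 to 6.65 CPM in IRF5-KO (1.05, SE 0.29). Avil, an actin-severing protein, stood at 0.605 to 2.33 CPM and 3.07 to 5.09 CPM (1.34, SE 0.39). Ebf1, a transcription factor of B cells and adipocyte precursors, read 8.44, 6.24 and 5.32 CPM in IRF5-KO 1 to 3 but 1.79 CPM in IRF5-KO 4, against 1.56 to 2.86 CPM in WT (1.28, SE 0.38). The noncoding E130102H24Rik differed by 1.27 (SE 0.40). The 5 lower genes were Wdyhv1, a glutamine amidase (-1.07, SE 0.29), Sars2, the mitochondrial seryl-tRNA synthetase (-1.10, SE 0.31), Usp18, which removes ISG15 (-1, SE 0.29), Epop (-1.02, SE 0.40) and the coronin Coro2b (-1.09, SE 0.43). Coro2b was highest in WT 1 at 72.8 CPM and lowest in IRF5-KO 2 at 2.86 CPM, and its other 6 values lay between 14.8 and 38.4 CPM.

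Replication-dependent histones, the intronless genes that package new DNA in S phase, were the list with the most members lower with p under 0.05. Of 63 genes, 51 were tested and 47 were lower. With an unadjusted p under 0.05, 0 were higher and 15 were lower (29.4%, beside 1.82% of all genes). None passed the adjusted test. The median log2 fold change of the list was -0.34, beside 0.00166 for all genes. Pair medians were -0.31, -0.004, -0.84 and -0.22, so pair 2 held almost no difference and pair 3 the most. The summed level was 1504, 1014, 1478 and 1881 CPM in WT and 1183, 1060, 865 and 1585 CPM in IRF5-KO, lower in 3 of 4 pairs (exact two-sided sign-flip permutation p = 0.25).

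Hist1h2ab, an H2A gene, read 35.3, 28.9, 35.6 and 47.7 CPM in WT and 23.5, 23.9, 18.3 and 34.0 CPM in IRF5-KO (-0.57, SE 0.13). Hist1h2bb, an H2B gene, read 32.2, 19.8, 29.1 and 42.3 CPM in WT and 18.5, 19.8, 15.3 and 30.7 CPM in IRF5-KO (-0.55, SE 0.16). In both genes, library 4 was the highest of each genotype and IRF5-KO 3 the lowest of all. Hist1h2af (-0.40, SE 0.10) was lower in 4 of 4 pairs. So was the identifier that the file names Hist2h2bb (-0.55, SE 0.12). The annotation gives it as Gm42743, a long noncoding RNA that overlaps a separate H2B gene Hist2h2bb on the same strand, and it was counted among the histones by its name in the file. The linker histone gene Hist1h1a differed by -0.59 (SE 0.18). The most abundant member, the linker gene Hist1h1c, gave 166 to 284 CPM in WT and 162 to 244 CPM in IRF5-KO (-0.21, SE 0.11). Histone copies are nearly identical in their coding parts, so counts of single members are uncertain.

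Promoters of both core histone genes are shown because they carry the elements known to drive such genes in S phase. The 250 bases before the start are from RefSeq, GRCm38.p6, on the plus strand, Hist1h2ab (RefSeq H2ac4) at chr13:23750838-23751087 and Hist1h2bb (RefSeq H2bc3) at chr13:23746484-23746733. Capitals mark the CCAAT box, the TATA box (searched as TATAAA) and the octamer (searched as ATTTGCAT) on either strand.
Hist1h2ab: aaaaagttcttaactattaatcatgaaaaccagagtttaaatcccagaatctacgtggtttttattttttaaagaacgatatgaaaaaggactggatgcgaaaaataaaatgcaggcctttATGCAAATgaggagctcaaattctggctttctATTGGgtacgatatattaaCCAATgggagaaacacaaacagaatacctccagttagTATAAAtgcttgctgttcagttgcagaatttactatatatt
Hist1h2bb: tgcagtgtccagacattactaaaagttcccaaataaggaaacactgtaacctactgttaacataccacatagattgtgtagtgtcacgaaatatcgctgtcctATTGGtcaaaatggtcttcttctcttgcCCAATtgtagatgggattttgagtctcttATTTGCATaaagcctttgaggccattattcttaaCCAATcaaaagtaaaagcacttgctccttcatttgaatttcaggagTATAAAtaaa
In windows of 300 bases around the start, CCAAT on either strand was found in 13 of the 15 genes lower with p under 0.05 (86.7%), in 26 of 32 other tested histone genes with a promoter in the table (81.2%) and in 37.4% of all 32851 promoters. TATAAA was found in 40%, 71.9% and 13.6% of these sets, and ATTTGCAT in 26.7%, 25% and 1.74%. None of the 3 motifs contains another, and the shares are given with no test. A match is a run of letters and not a measured binding site.

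Cell cycle genes lay on the same side with smaller differences. All 44 were tested and 42 were lower, with a median of -0.22. With an unadjusted p under 0.05, 0 were higher and 10 were lower (22.7%, beside 1.82% of all genes). They included E2f8, a repressor of late S phase (-0.59, SE 0.17), Rrm2, a subunit of the enzyme that makes deoxynucleotides (-0.55, SE 0.19), and the helicase subunits Mcm7 (-0.28, SE 0.095) and Mcm5 (-0.28, SE 0.099). E2f8 read 18.5, 10.3, 14.5 and 23.6 CPM in WT and 14.0, 6.76, 11.1 and 12.0 CPM in IRF5-KO. It was lower in 4 of 4 pairs, and the genotypes overlapped. Mki67, a general proliferation marker, gave 194 to 439 CPM in WT and 210 to 359 CPM in IRF5-KO (-0.10, SE 0.11), and Pcna, the sliding clamp, gave 132 to 147 CPM and 130 to 169 CPM (0.01, SE 0.097). The summed level of the list was 2116, 1412, 1400 and 2389 CPM in WT and 1904, 1457, 1153 and 1894 CPM in IRF5-KO (exact two-sided sign-flip permutation p = 0.25).

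Both counts depended on the pairs. With no replicate block, 4 histone genes and 1 cell cycle gene were lower with p under 0.05. Leaving out each pair in turn gave 11 to 24 histone genes, the most without pair 2, and 3 to 14 cell cycle genes, the fewest without pair 3. Leaving out single libraries with no block gave 1 histone gene without WT 4 and 23 without IRF5-KO 4. Summed levels of lipid-associated macrophage genes were, like those of histones, highest in libraries 1 and 4 of each genotype, at 26790, 16635, 21485 and 27700 CPM in WT and 31314, 17933, 17536 and 25195 CPM in IRF5-KO, and their part in the histone and cell cycle values was not tested. At 12 weeks the histones stood on the other side, with 44 of 49 tested members higher and a median of 0.47. Of the 49, 15 were higher with p under 0.05, beside 231 of all 10547 genes tested at both durations. At 12 weeks Hist1h2bb differed by 0.80 (SE 0.25) and Hist1h2ab by 0.40 (SE 0.18), and the cell cycle median was 0.32. The effect at 4 weeks minus that at 12 weeks was -1.35 (SE 0.33) for Hist1h2bb and -0.97 (SE 0.23) for Hist1h2ab, and neither passed adjustment over all genes (adjusted p = 0.927 each in edgeR).

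**Figure D3:**
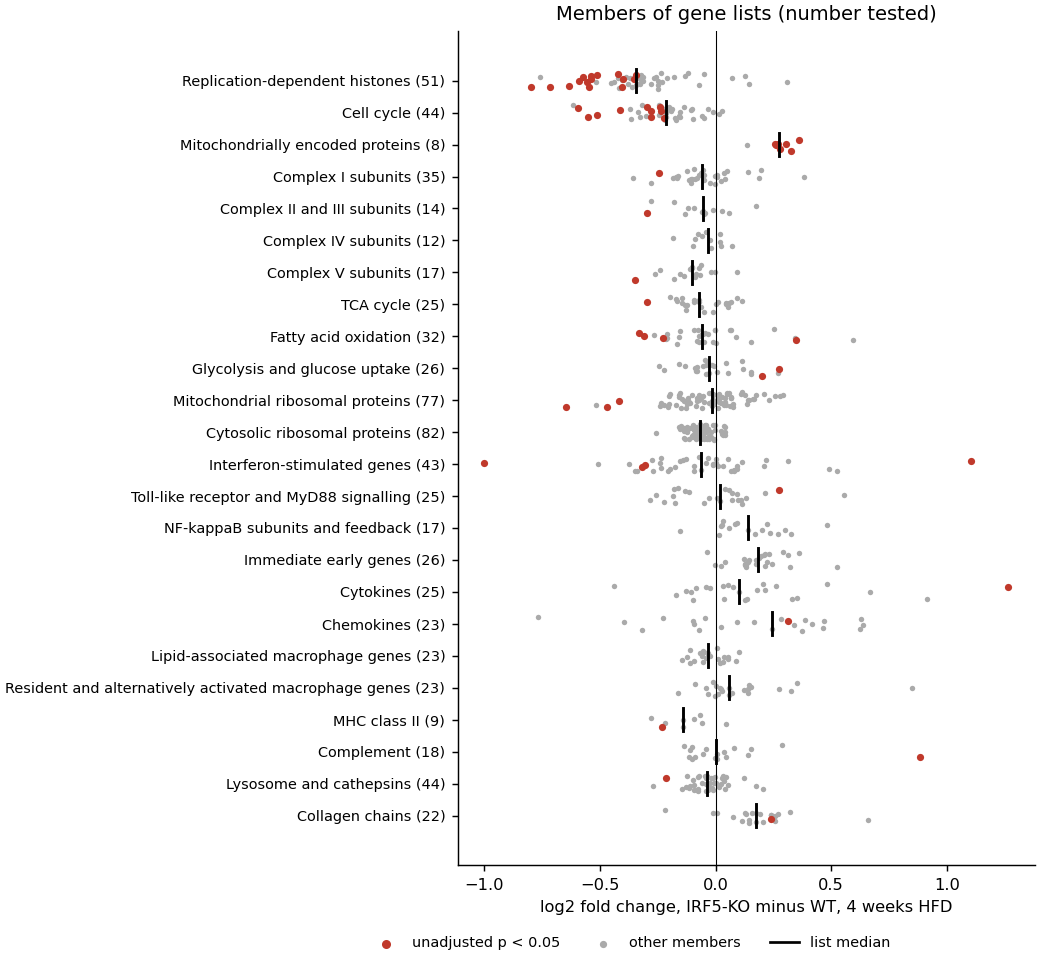
Log2 fold change (IRF5-KO minus WT, 4 weeks HFD) of each tested member of 24 gene lists, with red points for members with an unadjusted p under 0.05 and a black bar at the list median. Of the tested members, 47 of 51 histones and 42 of 44 cell cycle genes lie left of 0, and 8 of 8 mitochondrially encoded genes right of 0.

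Mitochondrially encoded protein genes, the subunits of the respiratory chain made inside the organelle, were higher in every member tested. Of 13 such genes, 8 were tested and 8 were higher, with a median of 0.27. Of the tested genes, 7 had an unadjusted p under 0.05 (87.5%, beside 2.3% of all genes). None passed the adjusted test. The remaining 5, among them mt-Co2 and mt-Atp6, had at most 7 counts in any library.

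mt-Cytb, the core of complex III, read 1371, 1431, 1373 and 932 CPM in WT and 1278, 1979, 2201 and 1230 CPM in IRF5-KO (0.36, SE 0.12). mt-Co1, the catalytic subunit of complex IV, read 2902, 3052, 2858 and 2110 CPM in WT and 2710, 3989, 4087 and 2615 CPM in IRF5-KO (0.28, SE 0.11). IRF5-KO 2 and 3 were above all other libraries, IRF5-KO 1 and 4 were within the WT range, and pair 1 ran the other way. mt-Nd1 (0.27, SE 0.10) and mt-Nd6 (0.26, SE 0.094), subunits of complex I, had the same pattern, and mt-Nd6 overlaps mt-Nd5 on the opposite strand.

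Summed, these genes gave 8114, 8579, 8095 and 5753 CPM in WT and 7510, 10934, 12121 and 7345 CPM in IRF5-KO (exact two-sided sign-flip permutation p = 0.25). With no replicate block 0 of them had p under 0.05. The count was also 0 without pair 2 and without pair 3, and 2 without pair 4. Malat1, a nuclear RNA, was high in IRF5-KO 2 and 3 as well, and a part of nuclear or organelle RNA in these values was not tested. At 12 weeks 8 of 8 were lower, with a median of -0.18 and 0 with p under 0.05.

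Nuclear genes of the same respiratory chain had medians between -0.10 and -0.03. Of 35 tested complex I subunits, 11 were higher and 1 was lower with p under 0.05, Ndufb7 (-0.25, SE 0.11). Complexes II and III had 3 of 14 higher and Sdhd lower (-0.30, SE 0.11), and complex IV had 4 of 12 higher with none past p under 0.05. For complex V, the ATP synthase, 16 of 17 were lower, with a median of -0.10 and Atp5e the only member past p under 0.05 (-0.35, SE 0.14). Its most abundant member Atp5a1 gave 402 to 466 CPM in WT and 333 to 476 CPM in IRF5-KO. Mitochondrial ribosomal proteins had 34 of 77 higher, and 3 lower with p under 0.05 (3.9%, beside 1.82% of all genes). These 3 were Mrps12 (-0.65, SE 0.20), Mrpl45 (-0.42, SE 0.16) and Mrpl32 (-0.47, SE 0.20). Cristae and mitochondrial dynamics genes had 9 of 29 higher and none past p under 0.05.

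In fatty acid oxidation, 23 of 32 tested genes were lower, 3 of them with p under 0.05 (9.38%, beside 1.82% of all genes), and 9 were higher, 1 with p under 0.05 (3.12%, beside 2.3%). Etfa, which passes electrons from acyl-CoA dehydrogenases, read 42.7, 44.5, 43.6 and 48.7 CPM in WT and 35.2, 38.0, 32.8 and 38.9 CPM in IRF5-KO, with no overlap (-0.31, SE 0.095). Its partner Etfb (-0.23, SE 0.092) and the carnitine carrier Slc25a20 (-0.33, SE 0.14) were also lower, and the lipid sensor Ppard was higher (0.35, SE 0.14). Cpt1a, the gate for fatty acid entry, gave 235 to 260 CPM in WT and 208 to 257 CPM in IRF5-KO.

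In glycolysis, Hk2, an inducible hexokinase, read 38.9, 36.9, 39.5 and 37.2 CPM in WT and 48.6, 47.1, 47.6 and 41.2 CPM in IRF5-KO, with no overlap (0.27, SE 0.095). Pfkp, a phosphofructokinase, differed by 0.20 (SE 0.087), while 16 of the 26 tested members were lower and the list median was -0.03. TCA cycle genes had 9 of 25 higher, with Sdhd the only one past p under 0.05. Cytosolic ribosomal proteins had 75 of 82 lower at a median of -0.07, and none past p under 0.05.

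Interferon-stimulated genes split. Of 43 tested, 17 were higher, 1 with p under 0.05 (2.33%, beside 2.3% of all genes). The other 26 were lower, 3 with p under 0.05 (6.98%, beside 1.82% of all genes). Ifit1, an RNA-binding antiviral protein, read 11.9, 17.0, 5.45 and 8.37 CPM in WT and 15.9, 55.9, 21.5 and 9.46 CPM in IRF5-KO (1.10, SE 0.28). It was higher in 4 of 4 pairs, and IRF5-KO 2 was far above the rest. Usp18 (above), Gbp2, a GTPase against intracellular microbes (-0.32, SE 0.11), and Ddx58, which encodes the RNA sensor RIG-I (-0.31, SE 0.13), were lower. Library 2 held the highest Gbp2 of each genotype, 97.7 and 88.4 CPM, against 18.5 to 30.1 CPM elsewhere. Gbp2 was lower in 4 of 4 pairs, but with no block the log2 fold change of Gbp2 turned to 0.49 without WT 2 and stood at -1.17 without IRF5-KO 2. At 12 weeks Ifit1 differed by -0.50 (SE 0.22), and the effect at 4 weeks minus that at 12 weeks was 1.58 (SE 0.39, adjusted p = 0.927 in edgeR). Interferon regulatory factors, the family of IRF5, had 3 of 8 tested members higher and none past p under 0.05.

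Inflammatory signalling genes were low in 2 libraries, 1 of each genotype. The 17 genes of NF-kappaB subunits and feedback had 16 higher, a median of 0.14 and none past p under 0.05. Their summed level was 3667, 3803, 1552 and 3496 CPM in WT and 3785, 4292, 4120 and 2150 CPM in IRF5-KO, low in WT 3 and IRF5-KO 4. Tnfaip3, a feedback inhibitor, gave 148 CPM in WT 3 and 398 CPM in IRF5-KO 4 against 950 to 1306 CPM elsewhere. Immediate early genes had 24 of 26 higher, a median of 0.18 and none past p under 0.05. They summed to 15800, 19346, 7768 and 14164 CPM in WT and 15048, 21101, 19410 and 9730 CPM in IRF5-KO, low in the same libraries.

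Without pair 3 the NF-kappaB median was -0.05 and the immediate early median was -0.16. With WT 3 and IRF5-KO 4 both left out and no block, a setting chosen after seeing the data, they were 0.12 and 0.17. In the same setting the histone, cell cycle and mitochondrially encoded medians were -0.56, -0.46 and 0.42, with 18, 4 and 1 members past p under 0.05 in those directions.

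Tnf, which encodes TNF-alpha, read 227, 216, 57.9 and 229 CPM in WT and 256, 242, 214 and 92.8 CPM in IRF5-KO (0.20, SE 0.36). Without pair 3 its log2 fold change was -0.29. Il6 read 8.67, 7.23, 2.34 and 2.92 CPM in WT and 4.12, 16.6, 13.2 and 3.07 CPM in IRF5-KO (0.67, SE 0.47). Of 25 tested cytokines, 17 were higher, and Il1a, the alarmin interleukin 1 alpha, was past p under 0.05 at 0.519 to 2.62 CPM and 1.28 to 7.28 CPM (1.27, SE 0.53).

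Chemokines had 15 of 23 higher at a median of 0.24, with Ccl24, an eosinophil attractant, past p under 0.05 (0.31, SE 0.14). Without pair 3 the chemokine median was -0.03. At 12 weeks Ccl24 differed by -1.16 (SE 0.47), and the effect at 4 weeks minus that at 12 weeks was 1.47 (SE 0.59, adjusted p = 0.927 in edgeR). Toll-like receptor and MyD88 genes, the pathway that activates IRF5, had 14 of 25 higher and Cd14 alone past p under 0.05. TGF-beta signalling genes had 15 of 28 higher, with Ltbp4 alone past p under 0.05.

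**Figure D4:**
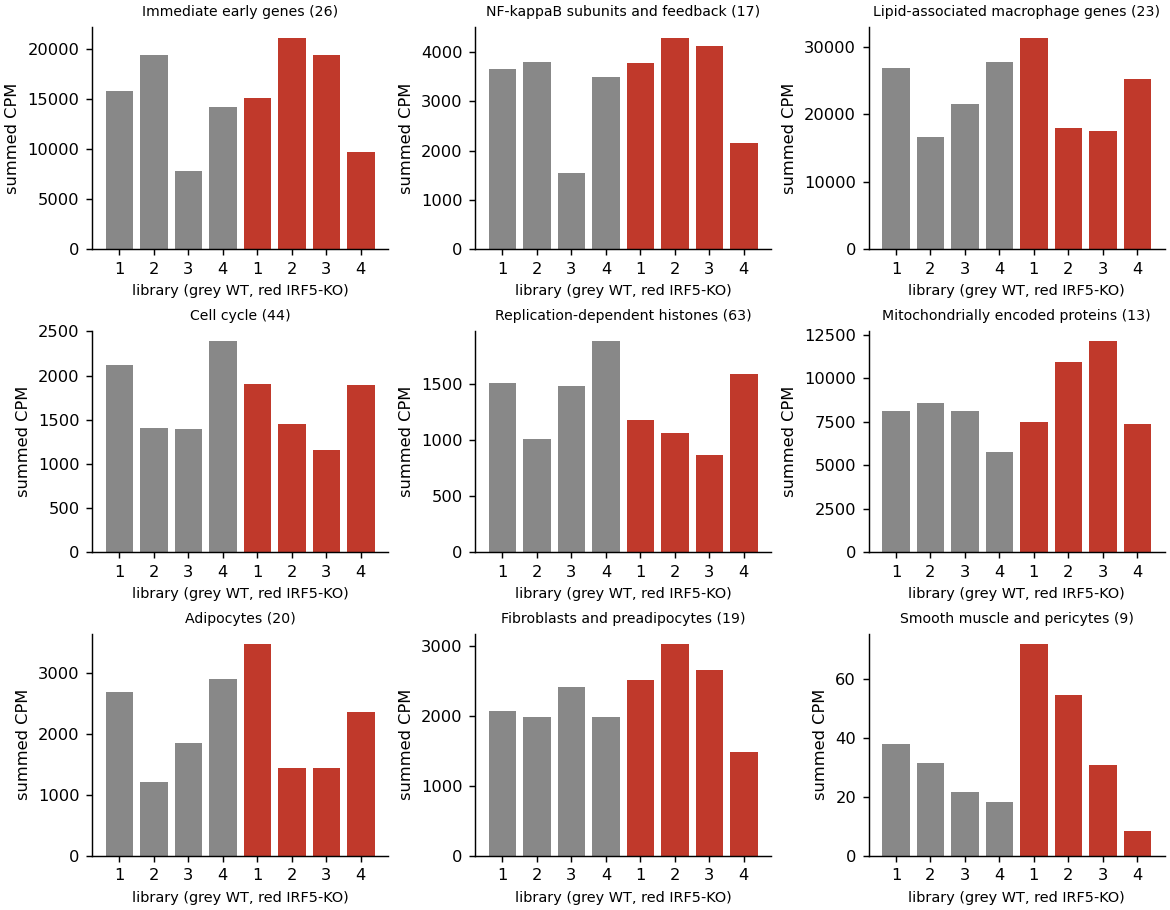
Summed CPM of 9 gene lists in each library at 4 weeks HFD, with WT 1 to 4 in grey and IRF5-KO 1 to 4 in red and the number of genes summed in brackets. WT 3 and IRF5-KO 4 are low for immediate early and NF-kappaB genes, and bars of the 2 genotypes overlap in all 9 panels.

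Lists that define ATM states had medians near 0 at 4 weeks, from pairs that lay on both sides of 0. Lipid-associated macrophage genes, which mark cells that wrap dying adipocytes, had 9 of 23 higher, a median of -0.03 and fold changes from -0.15 to 0.10, none past p under 0.05. Their pair medians were 0.26, 0.26, -0.31 and -0.26. Lpl, a lipase of that state, read 2037, 601, 1235 and 2224 CPM in WT and 2717, 824, 895 and 1715 CPM in IRF5-KO (0.01, SE 0.16), so it varied more between libraries than between genotypes. Resident and alternatively activated macrophage genes had 17 of 23 higher at a median of 0.06, none past p under 0.05, and pair medians of -0.43, 0.087, 0.245 and 0.307. Mrc1, the mannose receptor, gave 2259 to 2722 CPM in WT and 1985 to 2891 CPM in IRF5-KO (-0.01, SE 0.099).

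At 12 weeks the 2 lists stood apart, with lipid-associated genes at a median of 0.48 (21 of 23 higher, 4 with p under 0.05) and resident genes at -0.59 (21 of 23 lower, 12 with p under 0.05). Of all 10547 genes tested at both durations, 231 were higher and 381 lower at 12 weeks with p under 0.05. MHC class II genes, which present antigen, had 8 of 9 lower at 4 weeks, 1 with p under 0.05, at a median of -0.14. The pair medians were -0.13, -0.51, 0.0022 and 0.105, so pair 2 held the most. At 12 weeks 9 of 9 were lower, 7 with p under 0.05, at a median of -0.435, and the difference between durations was not tested for the list. H2-DMa, which loads peptide, was lower at both, by -0.23 (SE 0.096) and -0.33 (SE 0.13), with p under 0.05 at 4 weeks and, at 12 weeks, in the fit by genotype alone but not with the replicate block. Cd74, the class II chaperone, gave 5845 to 10550 CPM in WT and 5676 to 8232 CPM in IRF5-KO at 4 weeks (-0.06, SE 0.10).

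Fc gamma receptors and phagocytosis genes had 5 of 19 higher (26.3%, beside 50.4% of all genes tested) at a median of -0.04, with Fcgr1 and Rac2, a GTPase of the phagocyte oxidase (-0.20, SE 0.089), lower with p under 0.05 (10.5%, beside 1.82% of all genes). Lysosome and cathepsin genes had 32 of 44 lower and 1 with p under 0.05 (2.27%), at a median of -0.04. Complement genes had 9 of 18 higher, with Cd55, a brake on complement, past p under 0.05 (0.88, SE 0.38). Cd55 read 37.2 CPM in IRF5-KO 2 and 3.89 to 11.2 CPM in the other 7 libraries. Scavenger and efferocytosis receptors had 11 of 20 higher, none past p under 0.05, and monocyte-derived macrophage genes had 7 of 15 higher, with Vcan the one past p under 0.05.

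Nr1h3, which encodes the oxysterol receptor LXR-alpha, read 51.4, 29.2, 31.7 and 53.4 CPM in WT and 48.2, 17.9, 23.6 and 38.4 CPM in IRF5-KO, lower in 4 of 4 pairs (-0.40, SE 0.12). The other 17 tested members of the LXR and cholesterol efflux list were not past p under 0.05. Cholesterol synthesis had 19 of 23 higher at a median of 0.08, none past p under 0.05. In iron handling, Slc11a2, the iron importer DMT1 (0.68, SE 0.23), and Cp, the ferroxidase ceruloplasmin (0.41, SE 0.13), were higher with p under 0.05, 11.8% of 17 tested members beside 2.3% of all genes.

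Heat shock chaperones had 12 of 19 higher, with Hspa1b past p under 0.05 (0.44, SE 0.19). Hspa1b was on the other side at 12 weeks (-0.78, SE 0.33). In the integrated stress and unfolded protein response, Ddit4, an inhibitor of mTORC1, read 14.5, 55.5, 35.8 and 21.0 CPM in WT and 8.85, 18.7, 17.8 and 25.8 CPM in IRF5-KO (-0.76, SE 0.25), and Sdf2l1, a chaperone of the endoplasmic reticulum, differed by -0.24 (SE 0.10).

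Matrix and stromal genes were higher on median, with wide spread between the libraries labelled IRF5-KO. Collagen chains had 20 of 22 tested genes higher at a median of 0.17, with Col14a1 alone past p under 0.05 (0.24, SE 0.087). They summed to 1738, 1564, 1801 and 1665 CPM in WT and 2329, 2440, 1886 and 1165 CPM in IRF5-KO, so IRF5-KO 4 was the lowest library of all and IRF5-KO 1 to 3 the highest. Fibroblast and preadipocyte markers moved with them, at 2065, 1981, 2404 and 1984 CPM in WT and 2507, 3015, 2649 and 1478 CPM in IRF5-KO. Of these, 16 of 19 were higher and Pi16, a marker of adventitial progenitors, was past p under 0.05 (0.58, SE 0.23).

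Smooth muscle and pericyte markers summed to 38.1, 31.5, 21.8 and 18.3 CPM in WT and 71.9, 54.6, 30.8 and 8.44 CPM in IRF5-KO, with Rgs5 past p under 0.05 (0.75, SE 0.32). Rgs5 was higher in 3 of 4 pairs and at -0.58 in pair 4, and with no block the log2 fold change of Rgs5 was -0.00078 without IRF5-KO 1. Endothelial markers summed to 91.7 to 120.8 CPM in WT and 95.9 to 217.7 CPM in IRF5-KO, and Vwf, von Willebrand factor, was 23.3 CPM in IRF5-KO 1 against 3.11 to 9.94 CPM elsewhere (0.72, SE 0.28). Adipocyte markers summed to 1207 to 2894 CPM in WT and 1440 to 3466 CPM in IRF5-KO, with Lpl, which macrophages also express, as the largest part, and Adipoq had at most 20 counts in a library. Metalloproteinases and their inhibitors had 13 of 17 higher, none past p under 0.05. The part of such cells in Vcan, Ltbp4, Dst and Ebf1 was not tested.

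Genes that the study singled out in relation to IRF5 had no p under 0.05 in this fit of ATMs at 4 weeks. The study picked them by IRF5 binding and by Wald tests between genotypes in ATMs and in treated bone-marrow-derived macrophages. Neither those treated macrophages nor its knockdown experiments are part of these libraries. Ghitm, a protein of the inner mitochondrial membrane that shapes cristae, read 61.7, 53.6, 55.8 and 42.5 CPM in WT and 80.9, 54.1, 50.4 and 40.9 CPM in IRF5-KO (0.06, SE 0.11). It was higher in 2 of 4 pairs, and the genotypes overlapped. Abcg1, a cholesterol exporter, differed by -0.25 (SE 0.16), Atf5, a factor of the mitochondrial stress response, by -0.09 (SE 0.18) and Fnip2, a folliculin partner, by 0.0036 (SE 0.095). Syce2 (-0.16, SE 0.29) and Lrrc27 (-0.08, SE 0.38) were at most 8.57 and 5.04 CPM in any library.

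Genes near the engineered loci had medians close to 0. Within 5 Mb of Irf5, 36 genes were tested, with a median of -7.76e-05, Lncpint higher and Pot1a lower with p under 0.05. Within 5 Mb of Lyz2, 35 genes were tested, with a median of 0.0445 and Lyz1, Ptprb and Srgap1 higher with p under 0.05. Lyz1 alone of these passed the adjusted test.

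Besides the lysozymes, few of the genes past p under 0.05 at 4 weeks were past it in the same direction at 12 weeks, where the libraries were fitted by genotype alone. Of the 252 higher genes, 239 were tested in the 12-week libraries and 42.3% had the same direction, 3 with p under 0.05, which were Lyz1, Plxna2 and Epas1, while 15 had p under 0.05 in the opposite direction. Of the 199 lower genes, 195 were tested and 47.7% had the same direction, 11 with p under 0.05, among them Lyz2, Batf3, H2-DMa, Pole and Psmb8, while 11 had it in the opposite direction, 6 of which were histones. Over all 10547 genes tested at both, 47.5% had the same direction, and 262 had p under 0.05 at 12 weeks in the same and 350 in the opposite direction (5.8% in all, beside 7.53% of the higher and 11.3% of the lower genes). In the test of the difference between durations, 0 of 11560 genes passed an adjusted p under 0.05 in edgeR (smallest adjusted p 0.927), and 558 had an unadjusted p under 0.05, with the replicate block at 4 weeks only. With the block at both durations, 0 passed as well (smallest adjusted p 0.344 in edgeR) and 623 had an unadjusted p under 0.05, and with no block 0 passed and 454 had an unadjusted p under 0.05.

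**Figure D5:**
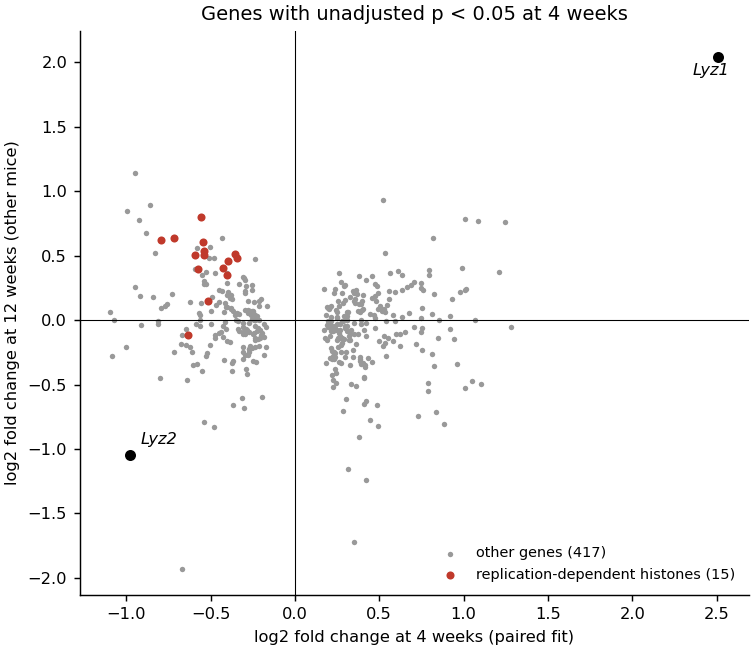
Log2 fold change (IRF5-KO minus WT) at 4 weeks HFD on the horizontal axis and at 12 weeks on the vertical axis for 434 genes with an unadjusted p under 0.05 at 4 weeks that were tested at both. Lyz1 and Lyz2 lie in the same-direction quadrants, and of the 15 histone genes, all left of 0 at 4 weeks, all but Hist1h2ai are above 0 at 12 weeks.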

How the data were processed

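RNA of F4/80+ cells was sequenced from a stranded, ribosomal RNA depleted total RNA library (10 ng of input, 12 PCR cycles, paired reads of 100 bases). Per the labels' processing notes, the authors used fastp 0.19.11 and STAR 2.7.3a, and the methods name mm10. The deposited values are raw counts per gene, made by the authors, with no normalization. The annotation release and strand setting of the counting are not given in the sources used here. Of 37310 identifiers, 32620 matched the GRCm38 annotation used for positions.

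The 8 libraries at 4 weeks were fitted with edgeR 4.0.16 in R 4.3.3 (filterByExpr, TMM, quasi-likelihood test, Benjamini-Hochberg adjustment over 10958 genes), with the replicate number as a block. CPM values use the TMM factors. The 12-week libraries (3279332 to 3792898 counts) were fitted by genotype alone, and the difference between durations was tested over all 16 libraries. Durations follow the sample labels, although a panel of the study that plots Irf5 against Ghitm places its ST-HFD and LT-HFD points the other way round in both levels. The replicate numbers come from the sample titles, and nothing states what they share. Deviations from the group means, over 9700 genes, correlated at 0.38, 0.498, 0.162 and 0.299 for pairs 1 to 4, each over 0.1, which was taken as pairing. Some libraries of different number correlated as well. IRF5-KO 1 correlated more with WT 4 (0.476) than with WT 1, and IRF5-KO 3 more with WT 2 (0.429) than with WT 3. A value over 0.1 therefore cannot tell these pairs from others. Counts of same-group libraries differed by more than sampling noise, so none was counted as a repeat of another.

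The genes and lists were chosen with earlier results of these data known, which makes no list count independent evidence. Genes were named by rule: 13 fixed genes, up to 10 a direction with adjusted p under 0.05, the 12 a direction with the smallest unadjusted p under 0.05, all 4 pairs one way and a mean of at least 10 CPM, the 6 a direction with the smallest p and an absolute log2 fold change over 1, and in each of 47 lists up to 4 members with p under 0.05 and the 2 of highest CPM. Other genes in the text, such as those counted at 0 or near the 2 loci, were named after their values were seen. A few genes that the rule names are not reported here.

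Alternatives were no block, RLE and upper-quartile factors, library sizes without the 3 largest features and mitochondrial genes, no filter, at least 20 counts in 4 libraries, DESeq2 1.42.0, limma voom (limma 3.58.1), all 16 libraries, and leaving out each pair or library. The fitting scripts were tested on simulated data. Exact sign-flip permutation tests over 4 pairs are two-sided and cannot go below 0.13.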

Additional observations from a re-analysis of the deposited data

Results flagged for a closer look

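In 24 of 354 groups of 4 libraries (6.78%), the highest or lowest library lay far from the other 3, by Dixon's test at the 95% level, where chance gives about 1 in 20. WT 3 held 7 of them. It was low for Tnf (57.9 CPM, the others 215.7 to 229), Tnfaip3 (148 CPM, the others 950 to 1059), Nfkbia (303 CPM, the others 809 to 847), the summed NF-kappaB genes (1552 CPM, the others 3496 to 3803) and the summed chemokines (3926 CPM, the others 4844 to 4998). WT 3 was also high for Lyz1 (52.4 CPM, the others 29.8 to 33.7) and low for Wdyhv1 (4.93 CPM, the others 6.82 to 6.997). IRF5-KO 4 was low for Nfkbia as well (442 CPM, the others 817 to 870).

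Library 2 was high for Gbp2 in both genotypes (97.7 CPM in WT against 21.8 to 30.1, and 88.4 CPM in IRF5-KO against 18.5 to 20.1). WT 2 was high for Sdf2l1 (81.9 CPM, the others 53.7 to 57.8), and IRF5-KO 2 for Cd55 (37.2 CPM, the others 6.90 to 11.1) and Pcna (169 CPM, the others 130.4 to 133). WT 1 was low for Irf5 (210 CPM, the others 253 to 256) and Sh3bp5 (26.8 CPM, the others 33.9 to 34.8) and high for Rgs5 (13.3 CPM, the others 3.27 to 4.15). WT 4 was low for Atf5 (8.57 CPM, the others 14.8 to 15.9) and mt-Cytb (932 CPM, the others 1371 to 1431).

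IRF5-KO 1 was high for Sdhd (37.9 CPM, the others 27.9 to 28.9) and Vwf (23.3 CPM, the others 8.32 to 9.94), and low for C1qc (1094 CPM, the others 1462 to 1493) and the summed complement genes (7036 CPM, the others 8215 to 8335). IRF5-KO 3 was low for Wdyhv1 (1.39 CPM, the others 3.50 to 3.84) and Fcgr1 (42.3 CPM, the others 62.2 to 66.2).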

How the results depend on the processing

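Of 1882 log2 fold changes of 86 named genes under 22 alternatives, 1848 kept their direction. Lyz1 passed the adjusted test in 22 of 22 alternatives (2.41 to 2.73) and Lyz2 in 10 of 22 (-1.05 to -0.87, adjusted p up to 1). Genes called numbered 2, against 1 with no replicate block, 29 with no filter on low counts and 1 to 2 with a pair or library left out. With no filter, 10 of the 73 other named genes with p under 0.05 also passed the adjusted test, against 0 in the other alternatives. Genes with an unadjusted p under 0.05 numbered 451, against 202 with no block, 775 with no filter, 102 in DESeq2, 244 with all 16 libraries and 165 to 608 with a pair or library left out. Upper-quartile factors turned the split of 252 higher and 199 lower into 202 and 246. Genes also past a log2 fold change of 1 numbered 22, against 84 with no filter, 6 with at least 20 counts, 35 in DESeq2, 52 with all 16 libraries and 22 to 73 with a pair or library left out.

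The 15 lower histone genes became 4 with no block, 30 with no filter, 9 in DESeq2, 9 with all 16 libraries and 1 to 24 with a pair or library left out. The 10 lower cell cycle genes became 1 with no block, 1 in DESeq2, 1 with all 16 libraries and 0 to 14 on leaving out. The 7 higher mitochondrially encoded genes became 0 with no block, 3 with all 16 libraries and 0 to 7 on leaving out. The signs of these 3 list medians held in 22 of 22 alternatives (-0.58 to -0.17, -0.46 to -0.068 and 0.16 to 0.42). With WT 3 and IRF5-KO 4 left out and no block, chosen after seeing the data, 1 gene was called, 76 passed p and fold, and 4 cell cycle and 1 mitochondrially encoded genes were past p under 0.05. Within 2 Mb of Irf5 and Lyz2, 3 genes had p under 0.05, against 5 within 5 Mb. At 12 weeks the replicate block took the genes called from 2, the lysozymes, to 0, and the difference between durations had 0 with and without it.

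Some log2 fold changes crossed 0 when a pair or library was left out. These were Adgre1 (-0.13 to 0.061), Ghitm (-0.14 to 0.22), Atf5 (-0.26 to 0.069), Syce2 (-0.41 to 0.063), Abcg1 (-0.51 to 0.070), Lrrc27 (-0.46 to 0.26), Fnip2 (-0.22 to 0.17), Tnf (-0.29 to 0.69) and Gbp2 (-1.17 to 0.49). The log2 fold change of Rgs5 ran from -0.00078 to 1.61. With WT 3 and IRF5-KO 4 left out, Atf5 stood at 0.051 and Fnip2 at -0.14. The log2 fold change of Fnip2 was also at -0.012 with upper-quartile factors, -0.0026 without the largest features, -0.0047 with no filter and -0.00053 in DESeq2. The cause of these shifts was not tested. At 3860469 to 4958131 counts a library, genes of a few CPM rest on few reads.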
